A study of Homo sapiens with 4 samples.

Results

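Oxidative phosphorylation (OXPHOS) is the set of 5 enzyme complexes of the inner mitochondrial membrane that make ATP from the oxidation of NADH and succinate. The nuclear genes of these complexes and of their named assembly factors were taken from an RNA sequencing table of A549 cell clusters. A gene was a member when it was annotated as protein-coding and its symbol began with NDUF, SDHAF, UQCR, ATP5 or COX followed by a digit, or was SDHA, SDHB, SDHC, SDHD or CYC1. This gave 106 genes, with 449 listed transcripts, of 16371 genes in all. By role, 80 were subunits, 21 were assembly factors and 5 were neither. Another 7 genes matched the symbols but were lncRNA genes or processed pseudogenes and were left out.

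A549 is a human lung adenocarcinoma cell line. The shMock group carried a control construct, and its genotype is labelled wild type. The shDUSP23 group carried a short hairpin construct against DUSP23, which encodes an atypical dual-specificity phosphatase, and is labelled as a DUSP23 knockdown. Both groups were grown as tumor cell clusters and had 2 libraries each. The labels give neither the number of hairpins or clones nor whether each library had its own culture. The p-values therefore cover no more than the spread of these libraries, which may be technical. With shMock DUSP23 itself stood at 29.96 and 35.88 FPKM, and with shDUSP23 at 1.708 and 2.712 FPKM. FPKM are fragments per kilobase of transcript, scaled to the depth of the library, and each gene value is the sum over its listed transcripts. Steps in the low values put the depth, in units of 1000000 fragments, at 21.3 and 25.3 for shMock and at 27.0 and 42.2 for shDUSP23. Of 5 epithelial markers 3 were lower in shDUSP23 and 0 higher, where 22.2% of all genes tested were lower and 23.1% higher. KRT18 was at 975.6 and 922.2 FPKM against 702.2 and 695.6 FPKM (log2 fold change -0.44), CDH1 at 22.41 and 21.51 against 6.198 and 8.138 FPKM (-1.56) and EPCAM at 5.833 and 7.054 against 3.467 and 3.999 FPKM (-0.71), while KRT8 and KRT19 did not pass. Of 4 leukocyte markers only CD68 had values here, at 24.42 and 23.48 FPKM in shMock and 94.94 and 130.9 FPKM in shDUSP23. Of 3 endothelial markers 0 had values. Of 4 fibroblast markers only COL1A1 averaged at least 1 FPKM, at 2.934 and 2.482 against 3.915 and 4.663 FPKM. COL1A1 did not pass (0.58), but was called higher when the libraries were scaled to equal sums. With that scaling 1 of the 5 epithelial markers was lower and 0 higher, where 11.3% of all genes were lower and 35.9% higher. The part of these marker differences in the results was not tested.

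Complex I takes electrons from NADH and complex II from succinate, and both pass them to coenzyme Q. Complex III passes them on to cytochrome c and complex IV to oxygen. Complexes I, III and IV pump protons as they work, and complex V, the ATP synthase, uses the return of the protons to make ATP. Subunits of all complexes except II come from both the nuclear and the mitochondrial genome, and assembly factors help to build the complexes without staying in them.

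Most nuclear OXPHOS genes were lower in the shDUSP23 clusters. Of 105 members with a mean of at least 1 FPKM, 74 fell, 3 rose and 28 did not pass, with limma p-values adjusted by Benjamini-Hochberg over all 13691 genes tested and a threshold of 0.05. Of all genes tested 22.2% fell and 23.1% rose, 45.3% in either direction, against 70.5% of the members that fell. The members differed from all genes tested in level (median 65.6 against 11.3 FPKM) and transcript length (median 894 against 2360 bases). With each library corrected for GC content and transcript length, 67 of 105 members fell and 5 rose, and 22.5% of all genes fell. The part of the expression level in this excess was not tested. The summed level of the 106 genes was 10590 and 13140 FPKM for the shMock replicates, and for those of shDUSP23 it was 6784 and 6666 FPKM. Both shDUSP23 sums thus lay below both shMock sums, but with 2 libraries against 2 an exact permutation test cannot give a two-sided p below 0.333. The members held 1.96% and 2.27% of the summed FPKM of the shMock libraries and 1.55% and 1.49% of that of the shDUSP23 libraries. In such bulk libraries fewer cells of a kind and less RNA per cell cannot be told apart.

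The median log2 fold change, shDUSP23 minus shMock on the scale of log2(FPKM + 0.5), was -0.75 over the members and 0.03 over all genes tested. Because the FPKM of a shDUSP23 library added up to less than those of a shMock library, the fit was repeated with equal sums. This moved the median of all genes by 0.34, to 0.37, and the median of the members to -0.43. Relative to the median of all genes the members lay at -0.78 before and -0.80 after this scaling. Such scaling moves all genes of a library together, so this difference could hardly change and is no separate check. With equal sums 54 members fell and 5 rose of 106 tested, against 11.3% and 35.9% of all genes. In 90 members both shDUSP23 values were below both shMock values, and in 6 both were above, against 36.2% and 39.3% of all genes tested. Leaving out 1 library at a time left between 58 and 73 members that fell, the lowest count being without shMock replicate 2.

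In each of the 5 complexes some or most subunits fell, and the median of the assembly factors was nearer to 0 than that of the subunits. Of 80 subunits 63 fell and 2 rose, with a median of -0.84. Of 21 assembly factors 10 fell and 1 rose, with a median of -0.43. By complex, 29 of 37 subunits of complex I fell (median -0.76), 2 of 4 of complex II (-0.63), 8 of 10 of complex III (-0.83), 9 of 12 of complex IV (-0.89) and 15 of 17 of complex V (-0.91). With equal sums these medians were -0.43, -0.29, -0.55, -0.56 and -0.58, and that of the assembly factors was -0.11. The medians carry no test, because the members are not replicates of the condition. Assembly factors were also expressed at a lower level, with a median of 19.7 FPKM against 85.6 FPKM for the subunits, and had longer transcripts (median 1228 against 791 bases). Over the 105 members the log2 fold change had a Spearman correlation of -0.38 with the mean FPKM and 0.31 with transcript length. Over all genes these values were -0.13 and 0.14. After each library was corrected for GC content and transcript length, the medians were -0.59 for subunits and -0.18 for assembly factors. When only protein-coding transcripts were summed, they were -0.84 and -0.70, so most of the gap between the classes was gone.

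**Figure D1:**
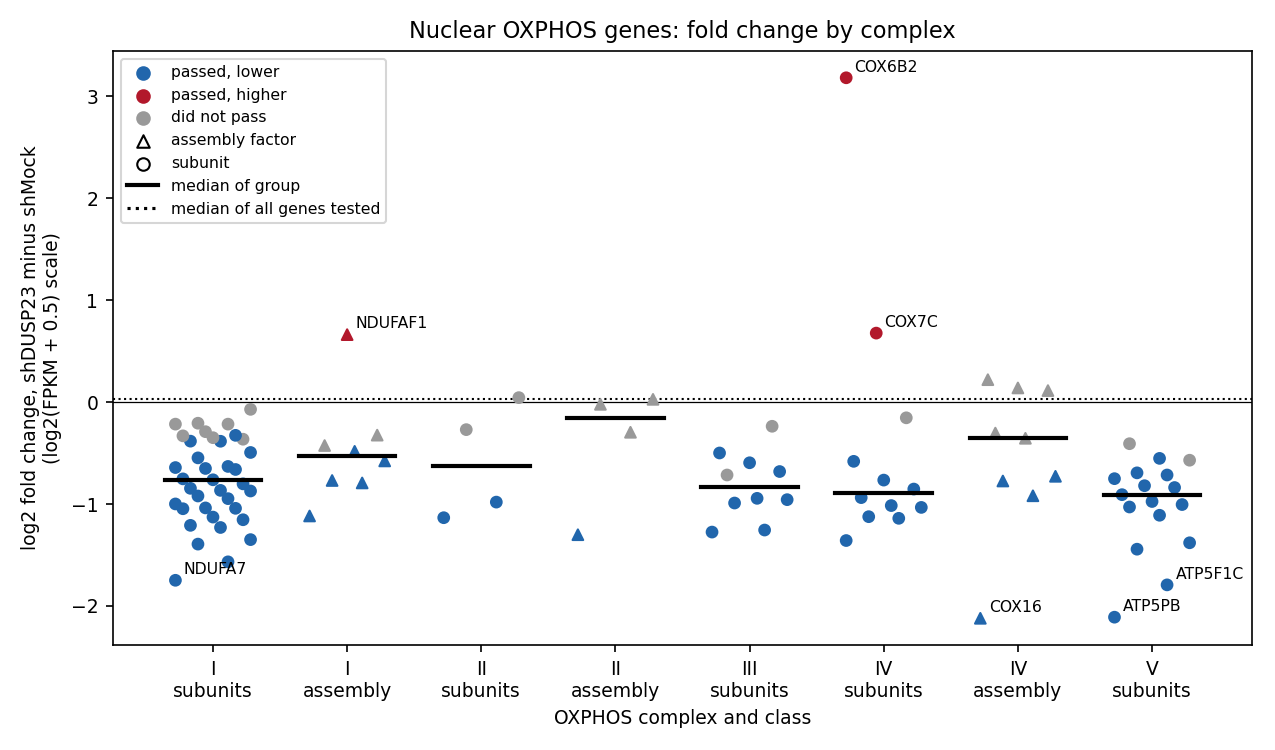
Each point is 1 gene, with its log2 fold change (shDUSP23 minus shMock, log2(FPKM + 0.5) scale) on the vertical axis and its complex and class on the horizontal axis. Circles are subunits, triangles are assembly factors, color gives the limma call, bars are group medians and the dotted line is the median of all genes tested (0.03). Only COX6B2, COX7C and NDUFAF1 are colored as higher.

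Summed over subunits, complex V showed the largest ratio between the group means, with complex III close to it, and complex II the smallest. This order carries no test. After the correction for GC content and length the medians were ordered otherwise, at -0.66 for complex III, -0.55 for V and -0.52 for both II and IV. Complex V subunits summed to 2977 and 3705 FPKM in shMock and to 1759 and 1668 FPKM in shDUSP23, 1.95 times lower by the means. Complex III subunits summed to 1100 and 1405 FPKM against 648.0 and 656.5 FPKM, 1.92 times lower. The shMock libraries differed more from each other than the shDUSP23 libraries did, with SDs of 216 and 6.01 FPKM for complex III. The ratio was 1.73 for complex I, 1.71 for complex IV and 1.5 for complex II, whose subunits summed to 263.2 and 300.0 FPKM against 188.7 and 186.1 FPKM. The sums of assembly factors were 587.0 and 677.8 FPKM in shMock and 392.1 and 425.4 FPKM in shDUSP23, 1.55 times lower.

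**Figure D2:**
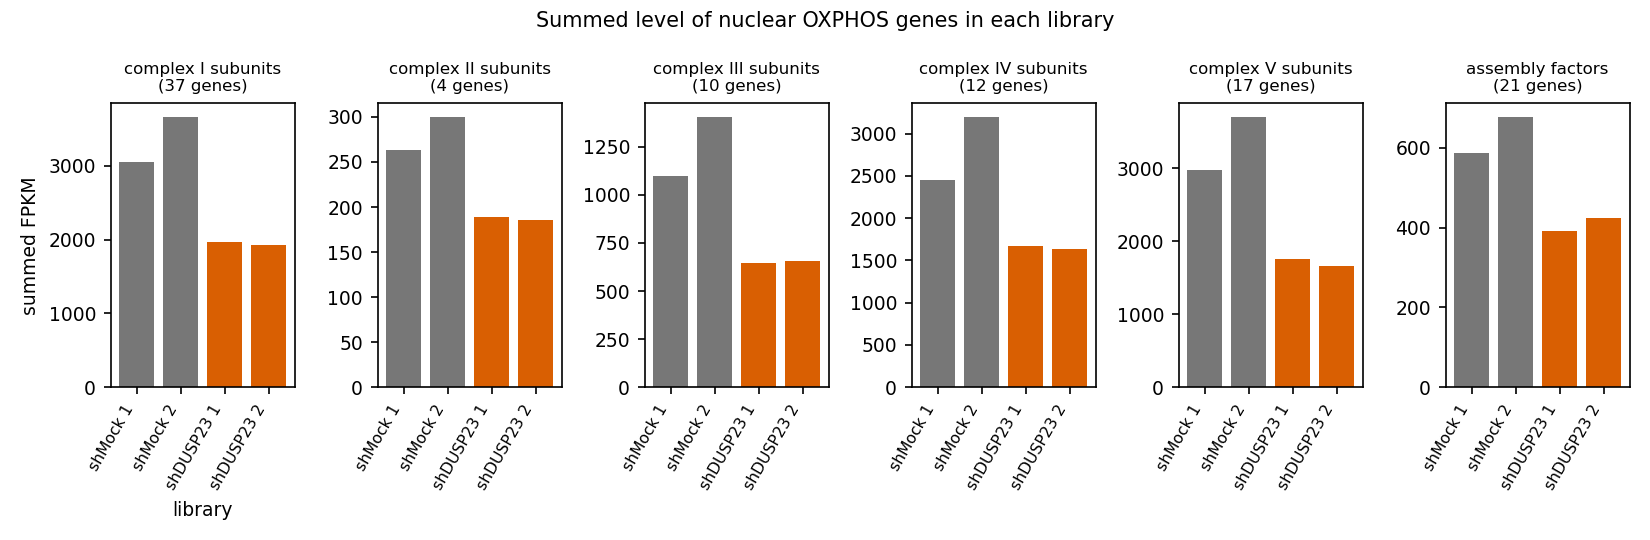
Bars give the summed FPKM of the subunits of each complex, and of the assembly factors, in each of the 4 libraries (gray shMock, orange shDUSP23). Every axis starts at 0, each panel has its own scale, and in all 6 panels both shDUSP23 bars are below both shMock bars.

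The promoters of several members are shown because members of all complexes fell together and a few moved the other way. NRF1 and the ETS factor GABP are transcription factors known for their sites in promoters of respiratory chain genes. Promoters from RefSeq (GRCh38.p14) were matched to 89 members, and the 250 bases before the gene start were searched on both strands for GCATGCGC, part of the NRF1 motif, and CCGGAAG, an ETS-type motif. The NRF1-type letters were in 13 of 89 member promoters (14.6%), against 4.89% of 9836 promoters of tested protein-coding genes and 2.77% of all 27305 promoters. The ETS-type letters were in 24 (27.0%), against 16.4% and 8.78%. At least 1 of these motifs was in 32 of 89, against 20.4% of the promoters of tested protein-coding genes. Among members that fell, 8 of 64 had the NRF1-type letters and 19 of 64 the ETS-type letters. Among the other members these counts were 5 of 25 each. A match is a description of the sequence and not a site of binding. The 120 bases before the RefSeq start are given below 5′ to 3′ on the strand of the gene, with matches in capitals, where GCGCATGCGC is the NRF1-type motif overlapping its own reverse complement. They belong to 4 genes with a match that fell (ATP5F1C, SDHD, UQCRQ and COX6A1), to COX16, which fell, and to COX7C and COX6B2, which rose. These genes were picked, so the display does not show whether a match goes with a fall. Members that did not fall also had matches, as counted above. The windows are chr10:7788057-7788176 (plus strand), chr11:112086753-112086872 (plus), chr5:132866522-132866641 (plus), chr12:120437993-120438112 (plus), chr14:70359684-70359803 (minus), chr5:86617821-86617940 (plus) and chr19:55354720-55354839 (minus), in this order. COX6A1 also had the NRF1-type letters in the 250 bases searched, but not within the 120 bases shown.
ATP5F1C: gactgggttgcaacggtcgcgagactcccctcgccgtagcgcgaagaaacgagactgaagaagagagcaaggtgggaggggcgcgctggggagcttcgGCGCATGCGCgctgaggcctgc
SDHD: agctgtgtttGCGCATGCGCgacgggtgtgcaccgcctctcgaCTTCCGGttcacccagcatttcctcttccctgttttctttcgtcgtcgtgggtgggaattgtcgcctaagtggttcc
UQCRQ: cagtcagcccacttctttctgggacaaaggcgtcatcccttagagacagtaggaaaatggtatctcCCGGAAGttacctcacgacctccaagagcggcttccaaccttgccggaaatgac
COX6A1: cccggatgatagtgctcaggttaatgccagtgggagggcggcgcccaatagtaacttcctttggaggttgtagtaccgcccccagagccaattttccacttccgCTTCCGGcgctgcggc
COX16: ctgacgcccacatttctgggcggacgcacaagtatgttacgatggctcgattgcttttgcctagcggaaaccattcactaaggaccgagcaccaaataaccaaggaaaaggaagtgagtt
COX7C: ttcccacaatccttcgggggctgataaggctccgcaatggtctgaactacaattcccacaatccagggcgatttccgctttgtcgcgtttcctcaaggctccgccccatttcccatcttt
COX6B2: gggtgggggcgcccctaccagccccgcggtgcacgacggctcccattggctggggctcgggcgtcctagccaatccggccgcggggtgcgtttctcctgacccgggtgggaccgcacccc

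Among the nuclear subunits of complex I the largest falls were in accessory subunits, and several catalytic core subunits moved little. NDUFA7, a subunit of the peripheral arm that holds the NADH site and the iron-sulfur clusters, was at 40.51 and 59.64 FPKM in shMock and 15.69 and 12.99 FPKM in shDUSP23 (log2 fold change -1.75, SE 0.20). NDUFA5, also of the peripheral arm, was at 52.54 and 57.86 FPKM against 19.14 and 17.46 FPKM (-1.57, SE 0.13). NDUFB2, of the proton-pumping membrane arm, was at 164.3 and 204.2 FPKM against 69.59 and 69.27 FPKM (-1.39). In each of these genes both shDUSP23 libraries lay well below both shMock libraries. NDUFA8, another membrane arm subunit, was at 56.12 and 55.92 FPKM against 22.99 and 20.47 FPKM (-1.35). NDUFAB1, the mitochondrial acyl carrier protein that is also a complex I subunit, fell from 113.8 and 138.8 FPKM to 59.18 and 49.42 FPKM (-1.21).

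Of 20 membrane arm subunits 18 fell, with a median of -0.83, and of 16 peripheral arm subunits 10 fell, with a median of -0.44. With equal sums 13 and 6 of them fell, and the medians were -0.50 and -0.11. The 7 nuclear catalytic core subunits, a division added after the values were seen, had a median of -0.38 with 4 that fell. The 30 accessory subunits had a median of -0.87 with 25 that fell. The other core subunits of complex I are the 7 encoded in mitochondrial DNA, and all 7 fell, with a median of -1.19. NDUFV2, which carries an iron-sulfur cluster, had the largest fall of the nuclear core, from 156.2 and 166.9 FPKM to 97.58 and 82.28 FPKM (-0.85, SE 0.13). NDUFV1, which binds NADH, was at 58.11 and 69.93 FPKM against 54.01 and 50.16 FPKM (-0.29; limma, adjusted p = 0.106). NDUFV1 thus had lower values in both shDUSP23 libraries without passing the test, and a positive log2 fold change with equal sums (0.04). After the correction for GC content and length NDUFV1 was called lower (-0.45; limma, adjusted p = 0.0136). The calls of NDUFS1 (-0.38) and NDUFS8 (-0.49) were lost with equal sums, and also without shMock replicate 2 (limma, adjusted p = 0.125 and 0.289). They were lost as well without shDUSP23 replicate 1 (0.0802 and 0.218), and that of NDUFS1 also without shMock replicate 1 (0.0776). Complex I subunits that did not pass also included NDUFS7, NDUFS4, NDUFS6, NDUFV3, NDUFC1 and NDUFC2, with log2 fold changes between -0.36 and -0.07. Some of these were called under an alternative. NDUFS7 was called lower after the correction for GC content and length (-0.55; limma, adjusted p = 0.00953). NDUFC2 was called lower without shMock replicate 1 (-0.55; 0.0273), and NDUFC1 without shDUSP23 replicate 1 (-0.45; 0.0337). NDUFS4 was called higher after the correction for GC content and length (0.30; limma, adjusted p = 0.0425) and lower from protein-coding transcripts alone (-0.47; 0.0356).

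**Figure D3:**
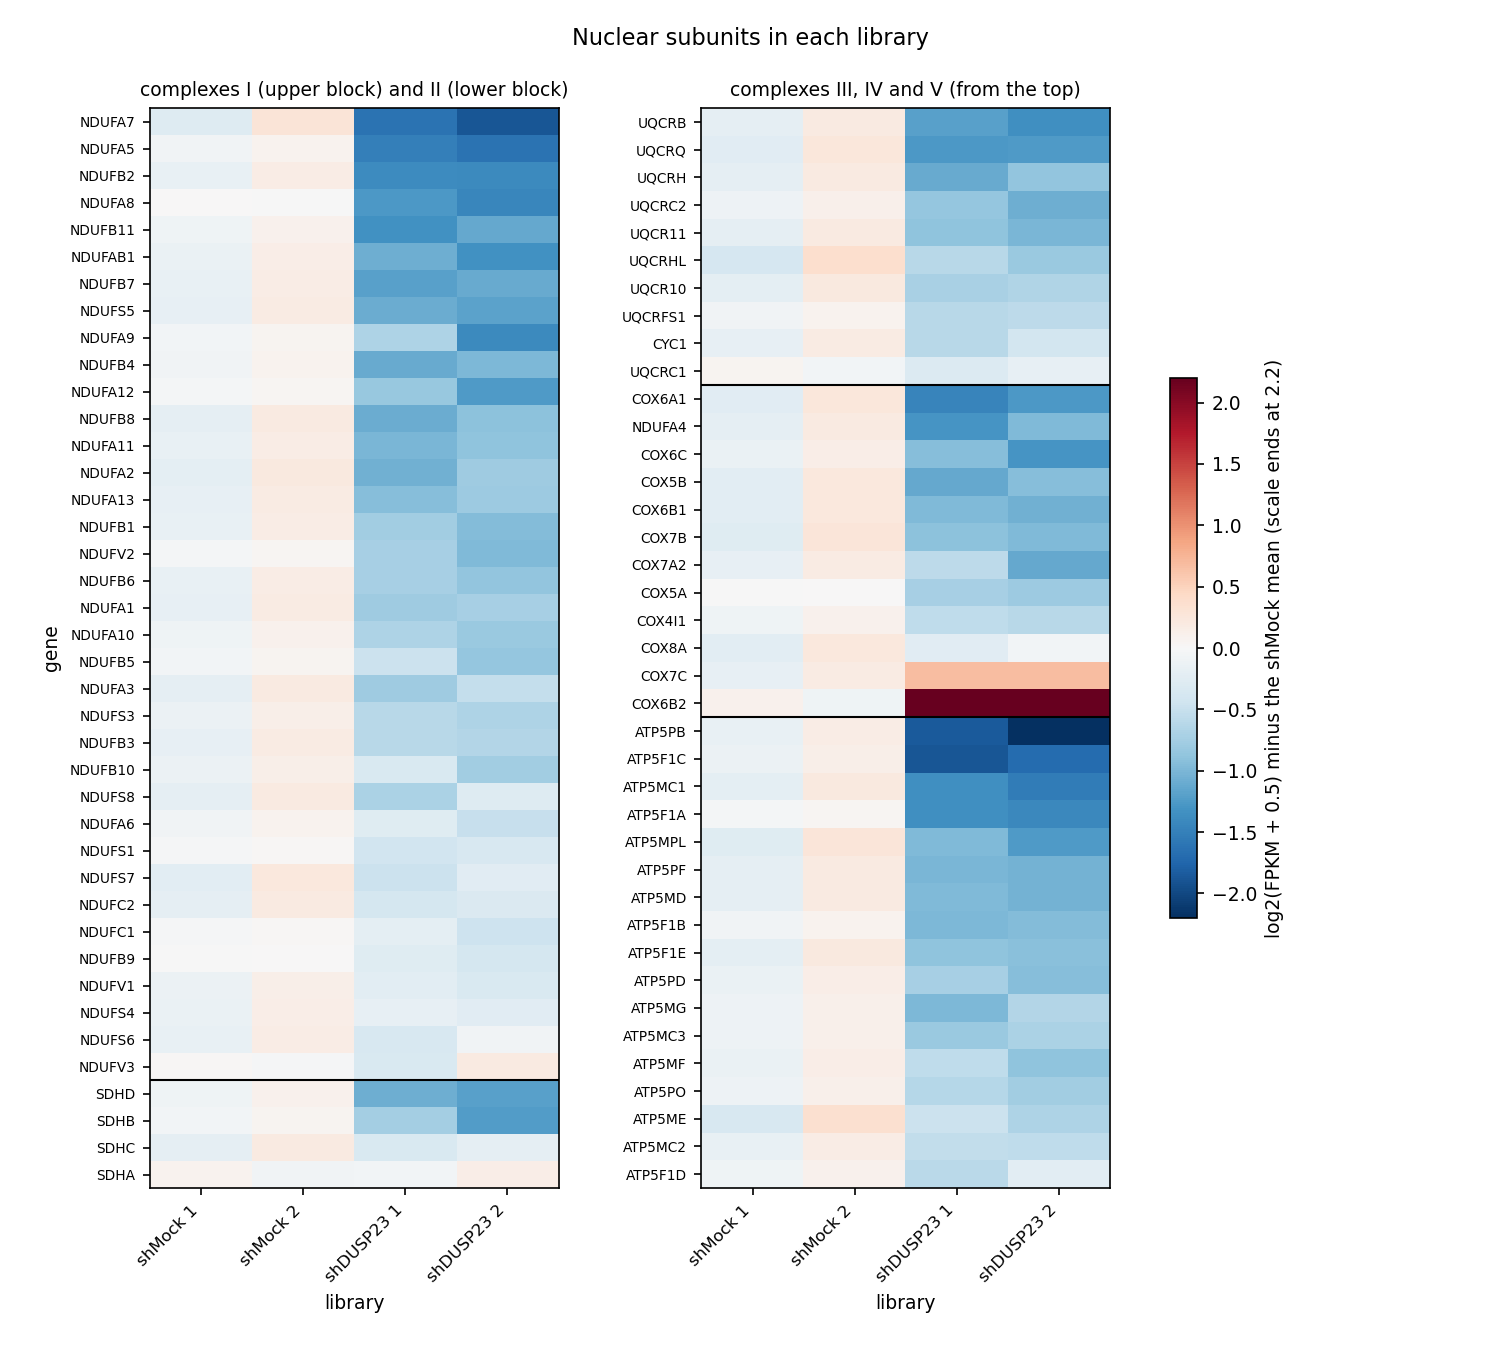
Rows are nuclear subunits, in order of log2 fold change within each complex, and columns are the 4 libraries. Color gives log2(FPKM + 0.5) minus the shMock mean of that gene, with the scale ending at 2.2 in both directions. The shDUSP23 columns are blue in most rows, with COX7C and COX6B2 in red, and NDUFV3, SDHA and COX8A near white.

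Of the 8 complex I assembly factors 5 fell and 1 rose, and with equal sums 2 fell and 1 rose. NDUFAF8 was at 52.51 and 73.77 FPKM against 24.73 and 32.67 FPKM (-1.12, SE 0.19), and NDUFAF2 at 37.34 and 35.57 FPKM against 21.35 and 21.00 FPKM (-0.77, SE 0.13). NDUFAF4 fell by 0.79 on the log2 scale, from 20.52 and 29.35 FPKM to 16.90 and 11.52 FPKM. Its call was lost without shMock replicate 2 (limma, adjusted p = 0.174), without shDUSP23 replicate 2 (0.0556), with equal sums (0.112) and after the correction for GC content and length (0.379). NDUFAF3 (-0.58) and NDUFAF5 (-0.48) fell as well, but both lost their calls with equal sums (-0.25 and -0.16; limma, adjusted p = 0.208 and 0.404), without shMock replicate 1 (0.0651 and 0.0591) and without shMock replicate 2 (0.0714 and 0.144). NDUFAF5 stood at -0.06 after the correction for GC content and length. NDUFAF6 and NDUFAF7 did not pass. NDUFAF1, needed early in the building of the membrane arm, was the 1 assembly factor that rose, from 6.535 and 8.874 FPKM to 11.82 and 12.90 FPKM (0.66, SE 0.19). The call of NDUFAF1 was lost without shMock replicate 1 (log2 fold change 0.45; limma, adjusted p = 0.166) and when only protein-coding transcripts were summed (0.44; adjusted p = 0.111).

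Complex II, the only complex with all its subunits encoded in the nucleus, was split. SDHD, a membrane anchor subunit, was at 71.12 and 81.24 FPKM in shMock and 35.77 and 32.99 FPKM in shDUSP23 (-1.13, SE 0.13). SDHB, the iron-sulfur subunit, was at 72.71 and 78.19 FPKM against 44.88 and 32.07 FPKM (-0.98, SE 0.17). SDHC, the other anchor, was at 80.62 and 106.1 FPKM against 73.05 and 80.39 FPKM and did not pass (-0.27; limma, adjusted p = 0.17), though without shMock replicate 1 it was called lower (-0.47; 0.0475). SDHA, the flavoprotein that oxidizes succinate, was at 38.75 and 34.49 FPKM against 35.01 and 40.62 FPKM (0.04, SE 0.14; limma, adjusted p = 0.811). The groups overlapped for SDHA and did not for the other 3 subunits. Groups that do not overlap were common, with 36.2% of all genes tested lower and 39.3% higher in this way. The ratio of SDHA to SDHB, as log2 of (FPKM + 0.5), was -0.90 and -1.17 in shMock and -0.35 and 0.34 in shDUSP23. SDHAF3, an assembly factor for the iron-sulfur subunit, was at 17.78 and 20.70 FPKM against 6.288 and 8.905 FPKM (-1.30, SE 0.20). SDHAF1, SDHAF2 and SDHAF4 did not pass, with log2 fold changes of -0.02, 0.03 and -0.30.

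In complex III the 3 largest falls were in small accessory subunits, but not all accessory subunits fell more than the core subunits. The accessory subunits UQCR11 (-0.944), UQCRHL (-0.715) and UQCR10 (-0.681) had smaller log2 falls than the core subunit UQCRC2 (-0.957). UQCR10 did not pass with equal sums (-0.35; limma, adjusted p = 0.0806). UQCR11 did not pass from protein-coding transcripts alone (-0.39; limma, adjusted p = 0.0858). UQCRB was at 192.7 and 253.9 FPKM against 96.18 and 86.34 FPKM (-1.27, SE 0.15). UQCRQ was at 211.3 and 298.9 FPKM against 104.8 and 105.3 FPKM (-1.25, SE 0.16). UQCRH, the hinge protein, was at 173.2 and 226.9 FPKM against 91.75 and 108.0 FPKM (-0.99). In these 3 genes, named for their large falls, each shDUSP23 value was lower than the lower of the shMock values, as in 36.2% of all genes tested. Of the core subunits 1 of 2 was called. UQCRC2 was at 152.6 and 179.5 FPKM against 91.98 and 78.62 FPKM (-0.96, SE 0.13), whereas UQCRC1 was at 73.17 and 67.34 FPKM against 56.88 and 62.25 FPKM and did not pass (-0.24; limma, adjusted p = 0.137). After the correction for GC content and length UQCRC1 was called lower too (-0.42; limma, adjusted p = 0.0115). Of the subunits that carry electrons, the Rieske protein gene UQCRFS1 fell by 0.59 and the cytochrome c1 gene CYC1 by 0.50 on the log2 scale. With equal sums the log2 fold changes of UQCRFS1 and CYC1 were -0.26 and -0.17 and neither passed (limma, adjusted p = 0.108 and 0.342). CYC1 also lost its call without shMock replicate 2 (adjusted p = 0.156) and without shDUSP23 replicate 1 (0.0869). UQCRHL, a near copy of UQCRH with 1 listed transcript, was at 2.242 and 4.052 FPKM against 1.818 and 1.499 FPKM and did not pass, and how reads were divided between these copies is uncertain.

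In complex IV, cytochrome c oxidase, 9 nuclear subunits fell while COX7C and COX6B2 rose. COX6A1 was at 380.8 and 538.2 FPKM against 164.3 and 189.2 FPKM (-1.36, SE 0.17). NDUFA4, named for complex I but assigned to complex IV, was at 105.6 and 140.7 FPKM against 49.02 and 61.84 FPKM (-1.14, SE 0.17). COX6C was at 260.8 and 317.6 FPKM against 149.4 and 116.3 FPKM (-1.12). When only protein-coding transcripts were summed, COX6C had a log2 fold change of -2.22 and did not pass (limma, adjusted p = 0.0722). COX5B was at 110.2 and 153.5 FPKM against 59.41 and 67.48 FPKM (-1.03). COX4I1, the ubiquitous form of subunit 4, was at 279.8 and 318.4 FPKM against 202.9 and 196.0 FPKM (-0.58, SE 0.12), and with equal sums it did not pass (-0.25; limma, adjusted p = 0.0914). COX8A was at 211.2 and 294.9 FPKM against 210.5 and 239.1 FPKM, with overlapping groups (-0.15; limma, adjusted p = 0.472), and its log2 fold change was 0.18 with equal sums and with quantile normalization.

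COX6B2 had the largest log2 fold change of all members in either direction. It encodes the testis form of subunit 6B, a subunit on the intermembrane space side, and is annotated in GENCODE 29 (GRCh38) at chr19:55349306-55354719, minus strand. In shMock it stood at 0.9511 and 0.7724 FPKM, and in shDUSP23 at 10.59 and 13.22 FPKM (3.18, SE 0.24; limma, Benjamini-Hochberg adjusted p = 5.37e-05). From the transcript lengths and the library depths these levels stand for about 36 and 36 fragments in shMock and 517 and 989 fragments in shDUSP23. All of its 3 listed transcripts are annotated as protein-coding, and each was higher in both shDUSP23 libraries than in either shMock library. The main form, COX6B1, went the other way, from 429.0 and 592.7 FPKM to 256.8 and 241.9 FPKM (-1.01, SE 0.16). COX6B2 thus stayed far below COX6B1 in FPKM, with a log2 ratio of -8.21 and -8.86 in shMock and -4.54 and -4.14 in shDUSP23.

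COX7C, at chr5:86617928-86620962 (plus strand), was at 106.8 and 136.4 FPKM against 193.4 and 193.0 FPKM (0.68, SE 0.14; limma, adjusted p = 0.00459). Both its main coding transcript, COX7C-201, and a shorter noncoding one, COX7C-205, were higher in shDUSP23, at 89.30 and 115.6 against 150.6 and 155.7 FPKM and at 15.67 and 19.32 against 40.75 and 36.25 FPKM. COX7B, another small subunit, was at 199.0 and 285.2 FPKM against 127.5 and 121.1 FPKM (-0.94). After the correction for GC content and length COX7B did not pass (-0.33; limma, adjusted p = 0.0505). The log2 ratio of COX7C to COX7B was -0.90 and -1.06 in shMock and 0.60 and 0.67 in shDUSP23, so their order by FPKM was reversed. COX7A2 fell by 0.85 on the log2 scale, from 181.2 and 231.7 FPKM to 136.7 and 93.85 FPKM, and lost its call without shMock replicate 2 (limma, adjusted p = 0.0556). COX7A2L, which joins complexes III and IV into supercomplexes, was at 90.94 and 108.1 FPKM against 99.53 and 108.1 FPKM and did not pass (0.07). With equal sums and after the correction for GC content and length COX7A2L was called higher (log2 fold change 0.40 and 0.49; limma, adjusted p = 0.0237 and 0.00972). NDUFA4L2, the paralogue of NDUFA4 known as a target of hypoxia-inducible factor, stayed under the filter, at 0.7588 and 0.1683 FPKM in shMock and 0.7868 and 1.770 FPKM in shDUSP23. The tissue forms COX4I2, COX6A2, COX7A1, COX7B2 and COX8C match the symbol rule but were not among the genes listed, so they had no values here.

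**Figure D4:**
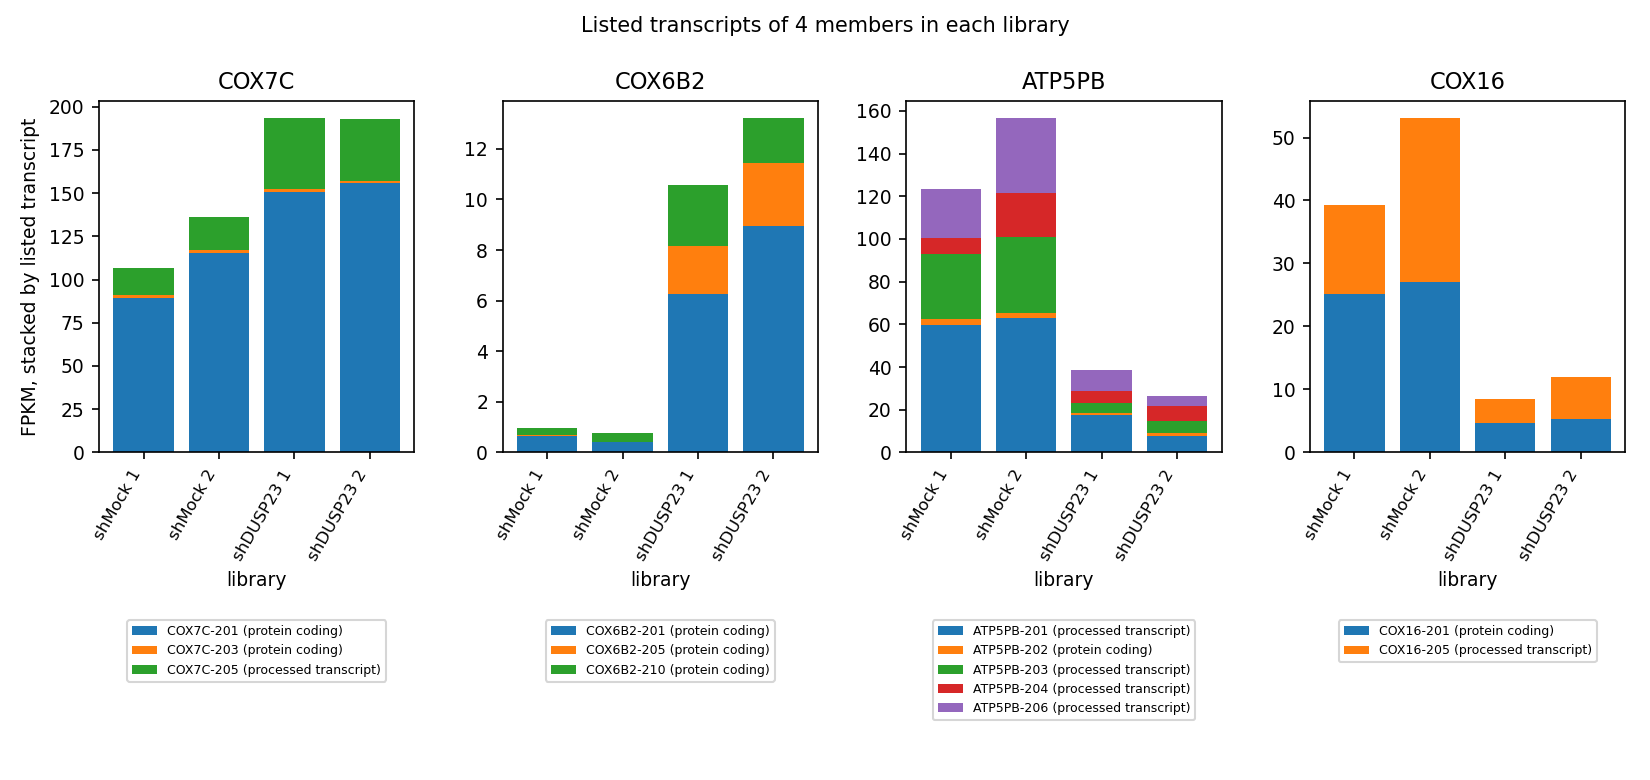
Bars give the FPKM of each listed transcript of COX7C, COX6B2, ATP5PB and COX16, stacked, in each of the 4 libraries, with a scale of its own in each panel. The stacks are higher in both shDUSP23 libraries for COX7C and COX6B2 and lower in both for ATP5PB and COX16.

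Among the 9 complex IV assembly factors 4 fell, and COX16 had, with ATP5PB, the largest fall of all members. COX16, which takes part in building the core subunit COX2 into the enzyme, is annotated at chr14:70325081-70359700 (minus strand). It was at 39.34 and 53.07 FPKM against 8.545 and 11.97 FPKM (-2.12, SE 0.20; limma, adjusted p = 0.000149). Its coding transcript COX16-201 was at 25.09 and 27.11 FPKM against 4.705 and 5.362 FPKM, and the noncoding COX16-205 at 14.24 and 25.97 FPKM against 3.840 and 6.608 FPKM. COX11, a copper chaperone factor, was at 33.54 and 37.45 FPKM against 16.20 and 21.12 FPKM (-0.92, SE 0.16), with no call from protein-coding transcripts alone (limma, adjusted p = 0.0753). COX17, the copper donor, fell by 0.77 and COX14 by 0.73 on the log2 scale. COX17 did not pass after the correction for GC content and length (-0.28; limma, adjusted p = 0.151). COX14 did not pass with equal sums (adjusted p = 0.115) or without shMock replicate 2 (0.107). COX10 and COX15, the enzymes that make heme A, were at 12.43 and 10.55 against 10.08 and 15.88 FPKM and at 14.93 and 14.24 against 15.61 and 16.01 FPKM, and neither passed. COX18, COX19 and COX20 did not pass, with log2 fold changes of -0.35, 0.22 and -0.30, and COX20 was called lower without shDUSP23 replicate 2 (-0.52; limma, adjusted p = 0.0184).

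Complex V had the highest share of subunits that fell among the complexes, 15 of 17. ATP5PB, subunit b of the peripheral stalk that holds the F1 head in place, was at 123.4 and 156.6 FPKM against 38.38 and 26.39 FPKM (-2.11, SE 0.19). Most of this value was in transcripts annotated as noncoding. The 1 listed coding transcript, ATP5PB-202, held 2.16% and 1.62% of the gene value in shMock and 2.06% and 5.94% in shDUSP23, at 2.665 and 2.532 against 0.7893 and 1.568 FPKM. ATP5F1C, the gamma subunit that turns inside F1, was at 184.9 and 221.7 FPKM against 54.38 and 62.00 FPKM (-1.79, SE 0.13). ATP5F1A, the alpha subunit, was at 172.5 and 182.1 FPKM against 69.58 and 66.02 FPKM (-1.38, SE 0.11), and ATP5F1B, the catalytic beta subunit, at 376.8 and 421.3 FPKM against 200.2 and 204.7 FPKM (-0.97, SE 0.12). In each of these 4 genes both shDUSP23 values were below both shMock values, as in 36.2% of all genes tested. ATP5F1D and ATP5ME, the subunits delta and e, did not pass (-0.41 and -0.57; limma, adjusted p = 0.0712 and 0.0504), but each was called lower under several alternatives. ATP5F1D passed after the correction for GC content and length (-0.52; limma, adjusted p = 0.00639) and without shDUSP23 replicate 2 (-0.59; 0.0139). ATP5ME passed without shMock replicate 1 (-0.92; limma, adjusted p = 0.00487) and without shDUSP23 replicate 1 (-0.67; 0.0304), and stood at -0.22 without shMock replicate 2.

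The c-ring of the ATP synthase is made of copies of a single protein that 3 genes, ATP5MC1, ATP5MC2 and ATP5MC3, encode with different targeting sequences. All 3 fell, by different amounts. ATP5MC1 was at 160.7 and 216.6 FPKM against 72.59 and 64.24 FPKM (-1.44, SE 0.16). ATP5MC3 was at 215.1 and 251.3 FPKM against 132.2 and 144.0 FPKM (-0.75, SE 0.12). ATP5MC2, the highest of them in every library, was at 289.9 and 360.8 FPKM against 222.3 and 218.7 FPKM (-0.55, SE 0.13), and it did not pass with equal sums (-0.22; limma, adjusted p = 0.155). The log2 ratio of ATP5MC1 to ATP5MC2 was -0.85 and -0.73 in shMock and -1.61 and -1.76 in shDUSP23. ATP5IF1, the inhibitor that stops the synthase from running backwards, fell from 61.16 and 78.38 FPKM to 47.07 and 49.84 FPKM (-0.51, SE 0.14). The call of ATP5IF1 was lost with equal sums (-0.18; limma, adjusted p = 0.31) and without shMock replicate 2 (-0.33; 0.147). The readthrough transcripts ATP5MF-PTCD1 (0.51) and NDUFC2-KCTD14 (-0.09) did not pass. ATP5MF-PTCD1 was called higher with equal sums (0.85; limma, adjusted p = 0.00959) and without shDUSP23 replicate 1 (0.65; 0.0251). NDUFC2-KCTD14 was called lower without shDUSP23 replicate 1 (-1.18; 0.0203) and higher without shDUSP23 replicate 2 (1.0; 0.0243), and the reads of both may not be separable from those of ATP5MF and NDUFC2.

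Over all members, transcripts annotated as protein-coding held 89.2% and 89.6% of the summed FPKM in shMock and 88.6% and 88.2% in shDUSP23. Transcripts marked for nonsense-mediated decay held between 3.95% and 4.74%, and retained introns between 2.65% and 3.02%. The makeup of the summed value by transcript type was thus nearly the same in the 4 libraries. When only protein-coding transcripts were summed, 69 of 104 tested members fell and 2 rose. Of all 11697 genes tested in this way 2716 fell and 2545 rose.

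Genes that work with the members were examined as lists. All 13 mitochondrially encoded OXPHOS subunits fell, with a median of -1.08 and a range from -2.04 to -0.83, and all 13 also fell with equal sums. Their summed FPKM was 2.13 times lower by the group means, against 1.80 times for the nuclear subunits. Of 43 OXPHOS assembly factors named outside the symbol rule 22 fell and 0 rose, with a median of -0.48, where 22.2% of all genes fell and 23.1% rose. With equal sums 10 of them fell and 3 rose, with a median of -0.16, where 11.3% of all genes fell and 35.9% rose. BCS1L, which inserts the Rieske protein into complex III, fell from 15.95 and 18.85 FPKM to 7.263 and 7.460 FPKM (-1.18). Of 14 genes of coenzyme Q synthesis and cytochrome c 3 fell and 1 (COQ10B) rose, with a median of -0.21, and with equal sums 3 fell and 3 rose. The share of this list that fell, 21.4%, was near the 22.2% of all genes. CYCS, which encodes cytochrome c, fell from 230.1 and 262.6 FPKM to 98.67 and 86.99 FPKM (-1.40). PDSS1, which makes the tail of coenzyme Q, fell from 8.853 and 11.08 FPKM to 2.586 and 1.465 FPKM (-2.08). Of 14 tricarboxylic acid cycle enzymes 7 fell and 0 rose, with a median of -0.41, and with equal sums 4 fell and 1 rose, with a median of -0.07. Of 14 regulators of mitochondrial biogenesis 6 fell and 0 rose, with a median of -0.33, and with equal sums 4 fell and 2 rose, with a median of -0.01. TFAM, which packs mitochondrial DNA and takes part in its transcription, was at 40.85 and 44.27 FPKM against 6.798 and 8.876 FPKM (-2.38, SE 0.16). NRF1 was at 3.942 and 2.539 FPKM against 4.104 and 4.697 FPKM and GABPA at 7.754 and 7.399 FPKM against 6.798 and 4.811 FPKM, and neither passed (limma, adjusted p = 0.22 and 0.18).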

How the data were processed

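Total RNA of A549 clusters was sequenced as mRNA libraries, per the labels' protocols. The authors deposited FPKM values, 1 per Ensembl transcript and library, and per the submitters' processing notes STAR 2.7.1a, DESeq2 1.32.0 and GRCh38 were used. Which program made the FPKM, from which annotation, with what filter and strand setting, is not given in the sources used here. Values of 56389 transcripts were summed per gene ID. Depth was estimated from the equal steps of low values in 2312 single-transcript genes, of which 91.1% to 93.4% per library were whole within 0.1 fragment, with lengths from GENCODE 29 (93.6% of transcripts matched). For genes averaging 1 FPKM or more, log2(FPKM + 0.5) was fitted with limma 3.58.1 in R 4.3.3 (eBayes with trend, no covariates), with Benjamini-Hochberg adjustment over all genes at 0.05, two-sided.

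Alternatives changed the pseudocount (0.1 or 1), the filter (none or 5 FPKM), the scaling, the eBayes form, the replicate block, the transcripts summed and the libraries, or removed from each library a spline trend with GC content and with length (5 degrees of freedom each). Members and lists were chosen with earlier results of these data known, so they give no independent support. Named were members that rose, the 4 subunits per complex and 2 assembly factors per complex with the largest falls, complex II subunits, paralogue sets, ATP5IF1 and members that did not pass. 1 of the members is counted but not reported by name here. Other names were chosen after their values were seen. Where a value is given as a pair, replicate 1 comes before replicate 2. Python 3.11.15, pandas 2.3.3, numpy 2.4.6 and matplotlib 3.10.9 made the tables and figures.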

Additional observations from a re-analysis of the deposited data

How the results depend on the processing

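Under all 17 alternatives between 54 and 77 members fell, against 74 in the reported fit. The number that rose was 5 with equal sums and 5 after the correction for GC content and length, with or without the replicate block, and 2 to 4 when 1 library was left out (58 to 73 fell). All genes tested gave 6202 calls, and 4038 without shMock replicate 1 and 3464 without shMock replicate 2. The replicate numbers in the labels are shared, but no label says that they pair libraries, and the difference between replicates correlated at 0.053 between the groups over all genes. With the replicate block 77 members fell and 4 rose.

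Median log2 fold changes with equal sums were -0.51 for subunits, -0.11 for assembly factors, and -0.43, -0.29, -0.55, -0.56 and -0.58 for the subunits of complexes I to V. After the correction for GC content and length, with or without the replicate block, they were -0.59 (subunits), -0.18 (assembly factors), -0.60 (I), -0.52 (II), -0.66 (III), -0.52 (IV) and -0.55 (V). Quantile normalization gave -0.69 for subunits, -0.52 for complex II and -0.62 for complex IV, and protein-coding transcripts alone gave -0.70 for assembly factors. Leaving out 1 library gave -1.01 to -0.69 for subunits, -0.45 to -0.41 for assembly factors, -0.89 to -0.65 for complex I subunits, -0.75 to -0.50 for complex II subunits, -1.08 to -0.63 for complex III subunits, -1.11 to -0.72 for complex IV subunits and -1.06 to -0.70 for complex V subunits.

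Directions that turned, among the members named here, were mostly of members that did not pass. With equal sums NDUFAF7 and NDUFC1 stood at 0.0, NDUFB9 and SDHAF4 at 0.01, COX20 at 0.03, NDUFV1 at 0.04, SDHC at 0.06, NDUFC2-KCTD14 at 0.09, UQCRC1 at 0.10, NDUFS4 and NDUFS6 at 0.12, COX8A at 0.18, NDUFV3 at 0.25 and SDHAF1 at 0.31. Only NDUFB9 of these was called in the reported fit, as lower. After the correction for GC content and length, with or without the replicate block, NDUFAF7 and COX20 stood at 0.04, SDHAF4 at 0.08, NDUFS4 at 0.30 (called higher; limma, adjusted p = 0.0425, and 0.0354 with the block), COX19 at -0.06 and SDHA at -0.09. Median-ratio scaling gave -0.03 for SDHAF2 and -0.02 for SDHA, and quantile normalization 0.18 for COX8A. Protein-coding transcripts alone gave 0.33 for NDUFC1, 0.07 for COX20, -0.17 for SDHAF2 and -0.14 for COX7A2L. Leaving out each library in turn changed the sign of 8 such members, whose values ranged from -1.18 to 1.0 for NDUFC2-KCTD14, from -0.34 to 0.19 for NDUFV3, from -0.26 to 0.22 for SDHAF1, from -0.09 to 0.15 for SDHAF2, from -0.06 to 0.15 for SDHA, from -0.18 to 0.45 for COX10, from -0.06 to 0.19 for COX7A2L and from -0.39 to 0.09 for COX8A. Of these NDUFC2-KCTD14 was called higher without shDUSP23 replicate 2 (limma, adjusted p = 0.0243) and lower without shDUSP23 replicate 1 (0.0203). Scaling to equal sums moves all genes of a library together and raised the median of all genes by 0.34. Members with small falls turned with it. Why directions turned under the other alternatives was not tested. With 2 libraries a group, small differences can lie within the spread, although NDUFB9 passed at -0.33 in the reported fit.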
